A study of Mus musculus with 4 samples.

Results

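The genes described here encode the machinery that copies DNA in S phase and the enzymes that supply it with deoxynucleotides. They are 49 genes chosen by name and read from the gene tables of 4 primary mouse mammary tumors, which list 23746 gene rows each. All 49 were found, all carried an estimate of status OK in every tumor, and all 49 were among the 12752 genes that reached 1 FPKM (fragments per kilobase of transcript, scaled to the fragments mapped in the library) in at least 2 tumors and were therefore tested. The study asked what the loss of RANK, the receptor of the cytokine RANKL, does to mammary tumors that arise when Brca1 and p53 are lost. Tumors 26043 and 26044 came from triple-mutant females (WapCre;Rank;Brca1;p53), and tumors 26048 and 26050 from double-mutant females (WapCre;Brca1;p53). All 4 therefore share the Cre transgene and the conditional Brca1 and p53 alleles, and only the triple-mutant tumors also carry conditional Rank alleles. The Cre is driven by the whey acidic protein promoter, which in this line acts in luminal and basal mammary epithelium. The stroma, vessels and leukocytes of each tumor should therefore keep intact alleles. No measure of deletion in those cells is given in the sources used here. The study describes the females of the genotypes as littermates, but which of these tumors share a litter is not given in the sources used here. Nor are the age and grade of each sequenced tumor. Across its cohorts the paper reports intermediate-grade and no high-grade tumors in triple-mutant females, and both grades in double-mutant females. The part of grade in the differences was not tested. PolyA RNA of whole tumor was sequenced, so each value is a mixture over all the cells of a tumor, and a smaller share of cycling cells cannot be told apart from less RNA per cycling cell.

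Replication starts in G1, when the origin recognition complex, Cdc6 and Cdt1 load rings of the Mcm proteins onto DNA. At the start of S phase the kinase Cdc7 with its activator Dbf4 turns these rings into active helicases together with Cdc45 and the GINS complex. Polymerase alpha and primase then lay down primers, the RFC complex loads the sliding clamp Pcna, and polymerases epsilon and delta extend the strands on deoxynucleotides made by ribonucleotide reductase, thymidylate synthase and thymidine kinase. Many of these genes are transcribed at the passage from G1 to S phase by E2F factors, which is why their RNA is widely read as a sign of proliferation in breast tumors.

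The promoters of the genes held the letters bound by E2F factors more often than promoters at large. A RefSeq table of promoters (build GRCm38.p6), each spanning 250 bases before to 50 bases after a transcript start, held 50 promoters of 41 of the 49 genes. The E2F letters searched were TTTCCCGC, TTTCGCGC, TTTGCCGC and TTTGGCGC on either strand, and 15 of the 50 promoters (30%) held at least 1 of them, against 744 of all 32851 promoters in the table (2.26%). The CCAAT box, searched as CCAAT on either strand, stood in 52.0% of the member promoters and in 37.4% of all. The letters TTTGAA and TTCGAA, searched on either strand for the cell cycle homology region of late cell cycle genes, stood in 20.0% of the member promoters and in 19.2% of all. Of the 21 promoters found for 24 mitosis genes, 4.76% held E2F letters, 90.5% a CCAAT box and 76.2% the cell cycle homology letters. These are matches of letters in a window and not measured binding sites. The 4 promoters below belong to the genes with the largest difference between the genotypes among those that hold E2F letters. Rrm2 and Rpa3, which had larger differences than these 4 genes, held no E2F letters in the window. The 4 promoters are written 5′ to 3′ on the strand of the gene, and capitals mark the E2F letters.
Pole2: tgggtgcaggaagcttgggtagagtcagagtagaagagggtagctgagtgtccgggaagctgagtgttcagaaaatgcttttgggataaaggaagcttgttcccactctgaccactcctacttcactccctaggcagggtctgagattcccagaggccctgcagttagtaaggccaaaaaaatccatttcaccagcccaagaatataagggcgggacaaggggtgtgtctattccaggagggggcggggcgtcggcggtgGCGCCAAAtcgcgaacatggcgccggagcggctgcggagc
Mcm5: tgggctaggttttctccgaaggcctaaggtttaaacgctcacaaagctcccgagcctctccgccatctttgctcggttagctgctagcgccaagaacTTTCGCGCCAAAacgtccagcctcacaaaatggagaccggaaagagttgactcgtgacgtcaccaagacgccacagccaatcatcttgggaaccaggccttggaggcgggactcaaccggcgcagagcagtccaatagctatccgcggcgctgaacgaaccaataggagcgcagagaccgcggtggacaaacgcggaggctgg
Mcm6: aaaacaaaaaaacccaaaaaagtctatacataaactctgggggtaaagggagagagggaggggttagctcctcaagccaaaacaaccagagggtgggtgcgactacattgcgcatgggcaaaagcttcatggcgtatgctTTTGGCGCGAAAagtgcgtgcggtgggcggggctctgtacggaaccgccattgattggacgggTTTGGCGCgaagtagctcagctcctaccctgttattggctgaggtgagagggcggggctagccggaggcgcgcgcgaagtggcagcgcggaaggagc
Cdt1: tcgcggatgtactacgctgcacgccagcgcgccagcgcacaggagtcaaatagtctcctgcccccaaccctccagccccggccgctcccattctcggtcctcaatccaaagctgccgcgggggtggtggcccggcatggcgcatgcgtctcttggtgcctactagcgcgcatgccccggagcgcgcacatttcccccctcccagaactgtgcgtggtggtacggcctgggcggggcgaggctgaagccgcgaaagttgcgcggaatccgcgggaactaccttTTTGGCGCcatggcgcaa
The Pole2 window lies at chr12:69228141-69228440 on the minus strand, and its match begins 11 bases into the transcript. In Mcm5 (chr8:75109259-75109558, plus strand) a pair of overlapping matches on opposite strands begins at positions -153 and -149 from the start, and 3 CCAAT boxes stand in the same window. The window of Mcm6 (chr1:128359656-128359955, minus strand) holds 3 matches that begin at -110, -106 and -47, of which the former pair overlap, and 2 CCAAT boxes. The Cdt1 match (chr8:122567765-122568064, plus strand) begins at position 33 of the transcript.

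The tumors were measured at similar scale, with FPKM sums of 690775 to 796031 and 12150 to 12681 genes at or above 1 FPKM. The read depth is unknown. The confidence interval that Cufflinks gives with each FPKM had a median half-width of 6.01% to 6.92% of its midpoint over the 49 genes, but 18 to 23 of the 49 FPKM in each tumor lay outside their own interval, so the intervals were not used as errors. Tnfrsf11a, which encodes RANK, read 2.07 FPKM in 26043 and 0.962 in 26044, both triple-mutant, against 10.6 in 26048 and 11.9 in 26050. That order follows the labels (log2 difference -2.32, limma adjusted p = 0.225). Brca1 and Trp53, whose alleles are conditional in both genotypes, also lay lower in both triple-mutant tumors. Brca1 read 3.26 and 3.28 against 3.84 and 5.69 FPKM (-0.41, adjusted p = 0.702), and Trp53 15.7 and 87.8 against 149.7 and 103 (-1.70, adjusted p = 0.575). The FPKM of a whole gene need not drop when exons are deleted.

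Most replication genes stood lower in the triple-mutant than in the double-mutant tumors, by a modest amount and with no gene past the test. The median log2 difference of the 49 genes, triple-mutant minus double-mutant on the log2(FPKM + 1) scale, was -0.37, which is 1.30-fold lower, while the median over all 12752 genes tested was -0.02. The difference was below 0 for 39 of the 49 genes (79.6%), as it was for 51.6% of all genes. For 25 of the 49 (51.0%) both triple-mutant tumors lay below both double-mutant tumors, which held for 22.9% of all genes tested. Only Mcm7, Cdc7 and Pold1 lay above in both triple-mutant tumors (3 of 49, 6.12%), against 21.3% of all genes. In the remaining 21 genes the tumors of the genotypes overlapped. Leaving out a tumor loosens that condition, for all genes as well. Of the 49 genes 34 then lay lower and 5 higher without 26043 (all genes 45.1% and 33.2%), 30 lower and 9 higher without 26044 (31.9% and 40.2%), and 38 lower and 4 higher without 26048 (34.6% and 36.4%). Without 26050 the counts were 25 lower and 9 higher (36.3% and 30.8%).

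The limma fit with Benjamini-Hochberg adjustment called none of the 49 genes at an adjusted p below 0.05, and none of the 12752 genes in all (0%), of which 498 were lower and 754 higher at an unadjusted p below 0.05. Without a trend in the spread, limma called 5 genes of the 12752 and again 0 of the 49. The smallest adjusted p was 0.470 among the 49 genes and 0.0644 over all genes. At an unadjusted p below 0.05 the fit held 3 of the 49 genes lower in the triple-mutant tumors, Pole2, Rrm2 and Mcm6 (6.12%, against 3.91% of all genes), and 0 higher (against 5.91% of all genes). The count of 3 became 0 when 26050 or 26044 was left out (all genes, either direction, 3.99% and 9.28%), 5 when 26043 was left out (17.4%) and 4 when 26048 was left out (5.8%). With 2 tumors of each genotype an exact two-sided permutation test of any gene has p = 0.33 as its smallest value. The differences below are therefore descriptions of 4 tumors, each given with its standard error.

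**Figure D1:**
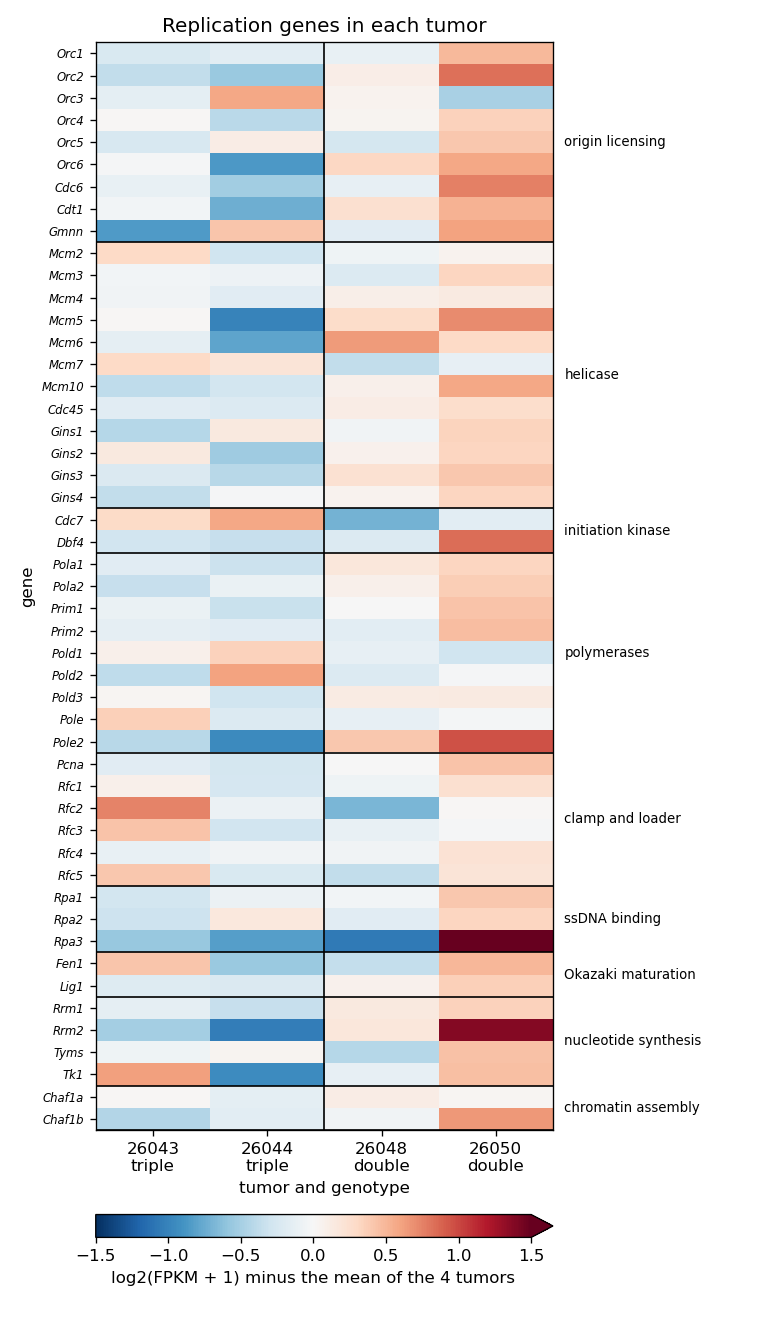
Level of each of the 49 genes in each tumor, as log2(FPKM + 1) minus the mean of that gene over the 4 tumors (blue lower, red higher), with genes in rows grouped by function and tumors in columns. Tumor 26050 is the highest of the 4 for 36 genes, and 26044 is the lowest for 28. Rpa3 in 26050, at 2.45 above its mean, lies beyond the end of the colour scale.

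In mean level over the 49 genes, the double-mutant tumors differed from each other by more than the genotypes did. Tumor 26050 was the highest of the 4 for 36 of the 49 genes (73.5%), against 24.7% of all genes tested, and 26048, of the same genotype, was the highest for only 2. At the other end 26044 was the lowest of the 4 for 28 genes (57.1%), against 39% of all genes. The mean log2(FPKM + 1) over the 49 genes was 4.58 in 26043, 4.42 in 26044, 4.61 in 26048 and 5.05 in 26050. The group means were 4.50 ± 0.11 (SD, n = 2) for the triple-mutant and 4.83 ± 0.32 for the double-mutant tumors, a difference of -0.33, and 26048 lay only slightly above 26043. Without 26050 the median difference of the 49 genes was -0.15 (all genes -0.04), a 1.11-fold lower level. Both triple-mutant tumors lay below 26048 for 25 genes (51.0%, against 36.3% of all genes). The 25 genes that lay below both double-mutant tumors are among these by definition, so the count could not fall. No gene was added, while the share over all genes rose from 22.9% to 36.3%. Leaving out 26048 instead gave -0.56.

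**Figure D2:**
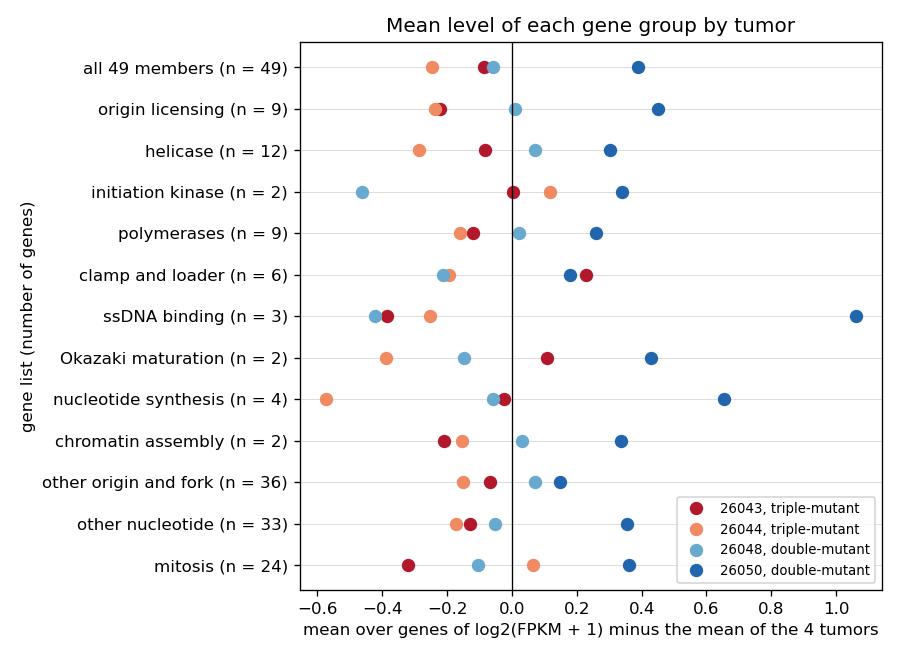
Mean over genes of log2(FPKM + 1) minus the mean of the 4 tumors (horizontal axis) for all 49 genes, for each functional group, and for the lists of other origin and fork genes, other nucleotide synthesis genes and mitosis genes (rows), with a point for each tumor. For all 49 genes the points lie at -0.09 (26043), -0.25 (26044), -0.06 (26048) and 0.39 (26050).

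Among the genes of origin licensing, 5 of 9 were lower in both triple-mutant tumors and 0 higher (all genes 22.9% and 21.3%). Their median log2 difference was -0.43. Orc2, a core subunit of the origin recognition complex, read 12.7 FPKM in 26043 and 11 in 26044, against 18 in 26048 and 30.3 in 26050. The group means were 11.8 ± 1.17 and 24.1 ± 8.74 FPKM (SD, n = 2 each), with a log2 difference of -0.93 ± 0.37 (SE, adjusted p = 0.520). Orc6, the small subunit that helps to recruit the Mcm rings, read 19.6 in 26043 and 10.4 in 26044, against 24.8 in 26048 and 30.1 in 26050 (-0.89 ± 0.40, adjusted p = 0.544). Cdt1, the loader that brings the Mcm rings to origins, gave 30.4 and 18.4 against 37.2 and 45.4 FPKM (-0.77 ± 0.36, adjusted p = 0.553). In Orc2, Orc6 and Cdt1 alike the lowest tumor was 26044 and the highest 26050, and the genotypes did not overlap. The other pair without overlap was Orc1, the largest subunit and an ATPase, at 2.75 to 2.94 against 3.08 to 5.17 FPKM, and Orc4, at 6.42 to 8.96 against 9.06 to 11.5. Cdc6, the ATPase that works with Cdt1, overlapped only narrowly, since 26043 read 4.90 and 26048 read 4.88. Orc5 overlapped as well, at 8.71 and 11.4 against 8.61 and 14.2 FPKM, and Orc3 was the only licensing gene with a difference above 0 (0.44), with 7.71 FPKM in 26044 and 3.15 in 26050. Gmnn, which encodes the Cdt1 inhibitor geminin, varied within each genotype and overlapped, with 17.3 and 42.9 FPKM in the triple-mutant and 28.2 and 49.2 in the double-mutant tumors.

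The helicase genes held the same tendency, with Mcm7 as the exception. Of 12 genes, 7 were lower in both triple-mutant tumors and 1 was higher (all genes 22.9% and 21.3%). Their median log2 difference was -0.38. Mcm5, a subunit at the gate of the Mcm ring, read 36.5 and 17.6 FPKM in 26043 and 26044, against 44.1 and 59.7 in 26048 and 26050 (-0.98 ± 0.44, adjusted p = 0.547). Mcm6 (chr1:128331591-128359656), another ring subunit, read 87.8 and 55.2 against 151 and 119 FPKM, with group means of 71.5 ± 23.1 and 135 ± 22.4 (SD, n = 2 each). Its log2 difference was -0.93 ± 0.35 (unadjusted p = 0.0483, adjusted p = 0.508), and it was a gene for which 26048 and not 26050 was the highest tumor. Mcm10, which helps the helicase to fire, read 7.60 and 8.23 against 10.8 and 15.8 FPKM (-0.66 ± 0.33, adjusted p = 0.575). Mcm4, Cdc45, Gins3 and Gins4 completed the 7, with differences between -0.63 (Gins3) and -0.22 (Mcm4). Cdc45, which travels with the helicase at the fork, had little spread within a genotype, at 16.7 and 16.1 against 20.4 and 22.8 FPKM (-0.37 ± 0.27, adjusted p = 0.673), as had the ring subunit Mcm4 at 29.3 and 26.9 against 32.4 and 33.5. Mcm7 (chr5:138164589-138171862) went the other way, with 126 and 117 FPKM in the triple-mutant and 78.8 and 93.5 in the double-mutant tumors (0.50 ± 0.26, adjusted p = 0.584). In the GENCODE M21 annotation the microRNA genes Mir25 and Mir93 overlap its exons on the same strand, and Ap4m1 and Cops6 overlap them on the opposite strand. Mcm2, Mcm3, Gins1 and Gins2 overlapped, with differences from -0.38 to 0.01. Mcm2 was the member nearest to 0 (0.01), at 52.2 and 34.2 against 40.4 and 43.7 FPKM, and Mcm3 read 46.2 and 45.2 against 41.4 and 59.8.

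The kinase that fires origins was split between its subunits. Cdc7 (chr5:106964322-106984431), the catalytic subunit, read 13.2 and 16.4 FPKM in 26043 and 26044 against 6.08 and 9.40 in 26048 and 26050, so that both triple-mutant tumors lay above. The group means were 14.8 ± 2.28 and 7.74 ± 2.34 FPKM (SD, n = 2 each), and the log2 difference of 0.87 ± 0.35 (adjusted p = 0.523) was the highest of the 49 genes. Dbf4, its activating subunit, read 14.2 and 13.5 against 14.9 and 32.0 FPKM (-0.63 ± 0.44, adjusted p = 0.658). That difference came down to 26050, because without it the Dbf4 value was -0.11.

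Of the 9 polymerase genes, 5 were lower in both triple-mutant tumors and 1 was higher (all genes 22.9% and 21.3%), with a median of -0.31. Pole2 (chr12:69201779-69228190), the second subunit of the leading-strand polymerase epsilon, read 5.67 FPKM in 26043 and 3.59 in 26044, against 10.8 in 26048 and 16.2 in 26050. The group means were 4.63 ± 1.47 and 13.5 ± 3.85 FPKM (SD, n = 2 each). Its log2 difference of -1.37 ± 0.39 carried the smallest p of the 49 genes (unadjusted p = 0.0195, adjusted p = 0.470) and stayed between -1.64 and -1.09 when each tumor was left out in turn. Pole, the catalytic subunit of the same enzyme, overlapped between the genotypes at 6.87 to 10.6 against 7.34 to 7.93 FPKM. All of polymerase alpha and primase lay below 0. Pola1, the catalytic subunit, read 5.62 and 4.97 against 7.43 and 8.34 FPKM (-0.50 ± 0.30, adjusted p = 0.625), and Pola2, its partner, 17.1 and 20.5 against 23.3 and 28.6 (-0.44 ± 0.29, adjusted p = 0.646). Prim1, the catalytic primase subunit, did not overlap either, at 18.8 and 15.9 against 20.2 and 27.7 FPKM (-0.43), whereas Prim2 did, at 14.1 and 13.6 against 13.9 and 21.8 (-0.31). In polymerase delta the catalytic Pold1 was higher in both triple-mutant tumors (28.1 and 33.9 against 24.4 and 21.4 FPKM, 0.42 ± 0.28), the accessory Pold3 lower (15.7 and 12.3 against 16.8 and 16.99 FPKM, -0.27) and Pold2 overlapping, with its highest value of 116 FPKM in 26044.

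The sliding clamp and its loader formed the group closest to 0, with a median of -0.01. Without overlap, 1 of 6 genes was lower and 0 were higher (all genes 22.9% and 21.3%). The clamp gene Pcna was lower in both triple-mutant tumors, at 141 and 132 FPKM against 159 and 214 (-0.43 ± 0.29, adjusted p = 0.648). All 5 RFC subunits overlapped. The largest difference among them belonged to Rfc2, with 127 and 70.9 against 46.6 and 76.4 FPKM (0.66 ± 0.44, adjusted p = 0.646), in which the double-mutant tumor 26050 lay between the triple-mutant tumors. Rfc3 and Rfc5, like Rfc2, were highest in 26043. Rfc4 read 24.7 to 31.1 FPKM in the 4 tumors, and the 5 differences ran from -0.18 (Rfc1, the large subunit, adjusted p = 0.859) to 0.66.

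The single-stranded DNA binding trimer RPA contained the most extreme value of the set. Rpa3, its smallest subunit (chr6:8255936-8259141), read 58.6, 48.7 and 41.5 FPKM in 26043, 26044 and 26048, but 482 in 26050. The group difference of -1.40 ± 1.19 (adjusted p = 0.712) therefore rests on 1 tumor and was 0.36 without it. The subunits that bind alongside did not share that value, since Rpa1 read 51.3 and Rpa2 54.9 FPKM in 26050. Of the genes tested next to Rpa3, the adjacent Mios was also high in 26050 (9.39, 5.91 and 6.4 FPKM in the other tumors and 50.9 there). Glcci1 and Ica1, the next genes on the other side, read 1.05 and 16.5 FPKM in 26050, against 1.63 to 3.27 and 8.58 to 13.4 elsewhere. Rpa1, the large DNA-binding subunit, was lower in both triple-mutant tumors at 31.7 and 36.2 against 37.6 and 51.3 FPKM (-0.37 ± 0.30, adjusted p = 0.702). Rpa2, the regulatory subunit, overlapped at 34.9 and 49 against 38.6 and 54.9 (-0.15 ± 0.34).

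Okazaki fragments are trimmed by the flap endonuclease Fen1 and sealed by the ligase Lig1. Lig1 was lower in both triple-mutant tumors, at 26.9 and 26.5 against 32.3 and 39.9 FPKM (-0.42 ± 0.28, adjusted p = 0.646). Fen1 varied within each genotype and overlapped, with 73.3 and 36.8 against 42.5 and 77.7 FPKM (-0.14 ± 0.50).

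Nucleotide supply showed the largest single difference among the 49 genes. Rrm2 (chr12:24708254-24714146), the S-phase subunit that sets the activity of ribonucleotide reductase, read 39.7 FPKM in 26043 and 27.4 in 26044, against 64.6 in 26048 and 149.9 in 26050. The group means were 33.6 ± 8.73 and 107 ± 60.3 FPKM (SD, n = 2 each), and the log2 difference was -1.55 ± 0.50 (unadjusted p = 0.0304, adjusted p = 0.480). Both triple-mutant tumors lay below both double-mutant tumors, and the difference without 26050 was -0.95. Rrm1, the large subunit with the active site, followed at a smaller size, with 37.5 and 32.2 against 45.8 and 53 FPKM (-0.49 ± 0.27, adjusted p = 0.598). Tyms, which makes thymidylate from deoxyuridylate, did not separate the genotypes, at 13.4 and 14.4 against 10.2 and 19.4 FPKM (-0.02 ± 0.40). Tk1, the salvage kinase of S phase, overlapped too and differed most within the triple-mutant group, with 131 and 43.9 against 78.8 and 118 FPKM (-0.34 ± 0.60, adjusted p = 0.863).

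Chromatin assembly factor 1 places histones on the new strands. Its subunit Chaf1b was lower in both triple-mutant tumors, at 22.7 and 27.5 against 29.9 and 49 FPKM (-0.60 ± 0.36, adjusted p = 0.619). Chaf1a was lower by a narrow margin, at 16.4 and 14.6 against 17.6 and 16.5 (-0.13 ± 0.28).

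**Figure D3:**
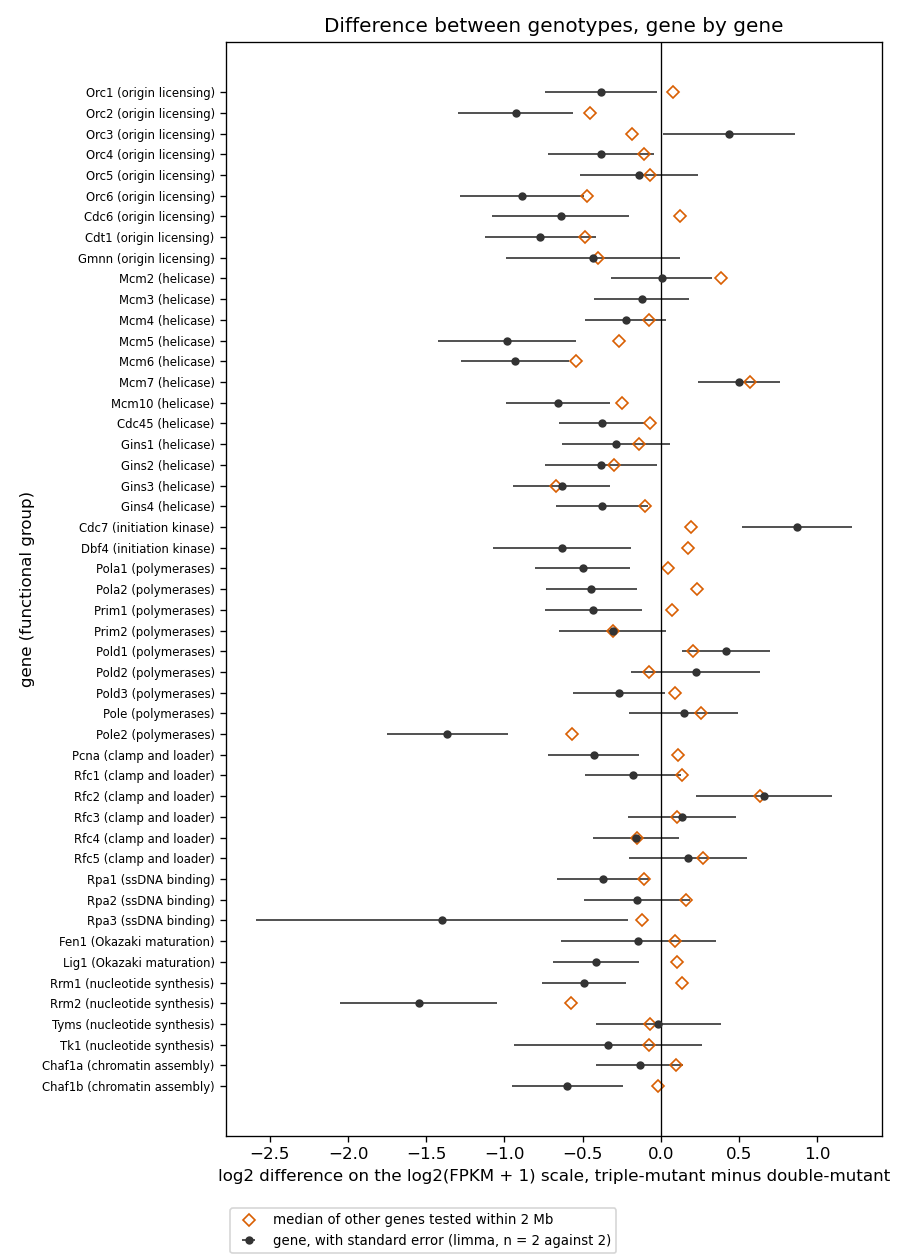
Log2 difference of each gene between the genotypes, triple-mutant minus double-mutant on the log2(FPKM + 1) scale (horizontal axis), with genes in rows. Filled points with bars are the gene and its standard error in the limma fit (n = 2 against 2), and open diamonds are the median of the other genes tested within 2 Mb. Rrm2, Rpa3 and Pole2 lie farthest to the left and Cdc7 farthest to the right.

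Subunits of the same complex can be set side by side within a tumor because FPKM are scaled by transcript length. The ratio of Rrm2 to Rrm1 was 1.06 in 26043 and 0.850 in 26044, against 1.41 in 26048 and 2.83 in 26050, and it did not overlap between the genotypes. Cdt1 to Gmnn, the loader over its inhibitor, overlapped, with 1.76 in 26043, 0.429 in 26044, 1.32 in 26048 and 0.924 in 26050. Further ratios were picked after the values were seen and are given without a test. Mcm6 to Mcm7, which sit in the ring in equal numbers, gave 0.695 and 0.470 against 1.91 and 1.27, so that Mcm7 was the most abundant ring transcript in both triple-mutant tumors and Mcm6 in both double-mutant tumors. Pole2 to Pole gave 0.535 and 0.523 against 1.47 and 2.05. Dbf4 to Cdc7 gave 1.07 and 0.822 against 2.46 and 3.40. Gins4 to Gins3 did not overlap either, at 9.76 and 15.3 against 8.83 and 9.13. Rfc2 to Rfc1, picked in the same way, did not overlap, at 6.54 and 4.69 against 2.66 and 3.52. The remaining ratios computed overlapped, namely Orc6 to Orc1 at 7.10 and 3.55 against 8.06 and 5.82, and Pold2 to Pold3 at 3.71 and 9.46 against 3.93 and 4.40.

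In the GINS and RFC complexes the highest and the lowest subunit were the same in all 4 tumors. Gins3 was the lowest GINS transcript in each tumor, at 2.15 to 4.59 FPKM, and Gins4 the highest, at 25.6 to 41.9. Rfc2 was the highest and Rfc1 the lowest RFC transcript in each tumor, with a ratio of 6.54 and 4.69 in the triple-mutant and 2.66 and 3.52 in the double-mutant tumors. The origin recognition complex had no such order, with Orc1 as its lowest transcript in 3 tumors and Orc3 in 26050, and with Orc6, Orc5 or Orc2 as its highest. Between the highest and lowest RPA subunit the ratio was 1.10 to 1.85 in the other tumors and 9.40 in 26050.

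**Figure D4:**
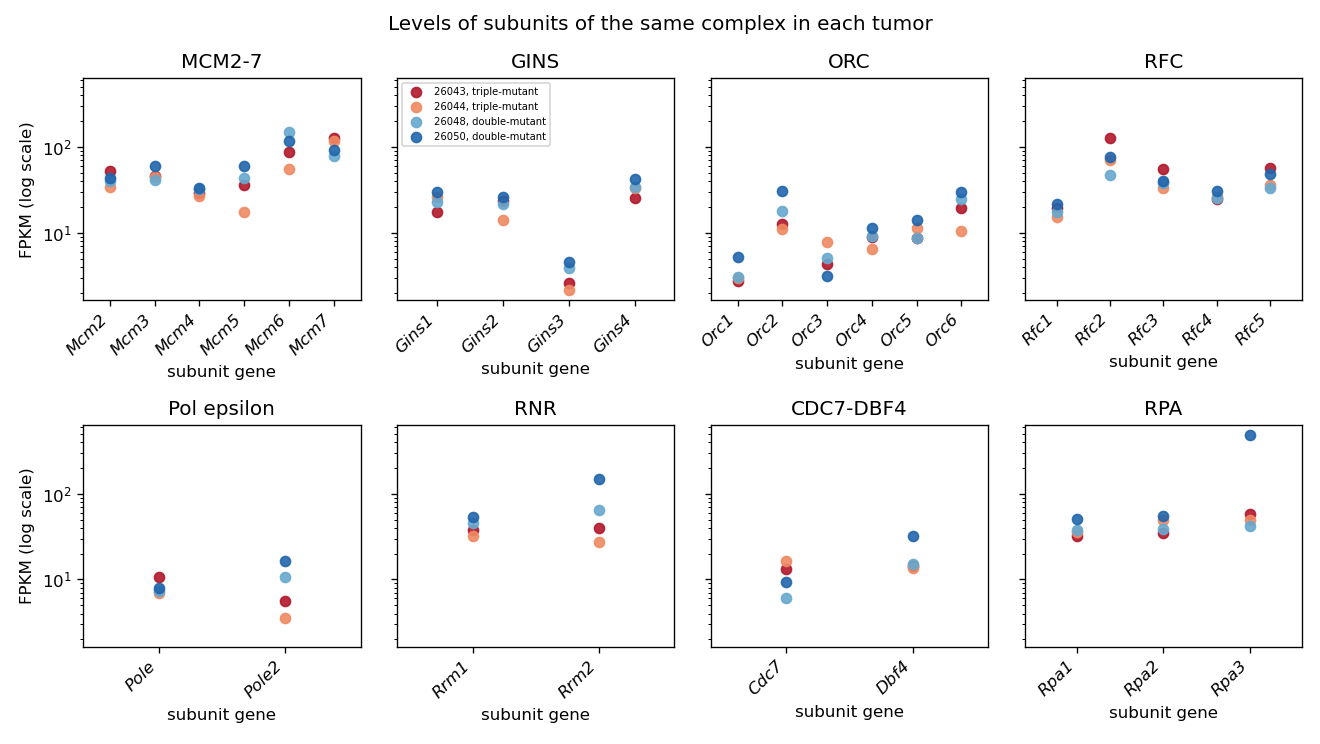
FPKM on a log scale (vertical axis) of the subunits of 8 complexes in each tumor, with a panel for each complex and a coloured point for each tumor. Mcm6 and Mcm7, Pole and Pole2, and Cdc7 and Dbf4 differ in order or spacing between the genotypes, and Rpa3 in 26050 stands alone at 482 FPKM.

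For these genes, the place on the genome went with the difference. The other genes tested within 2 Mb of each member had a median log2 difference that correlated with the member's own over 48 genes (Pearson r = 0.68, Spearman rho = 0.59, a description across genes of the same 4 tumors). Mcm3 had fewer than 5 such neighbours and was left out. The same correlation over all genes tested was not computed, so it is not shown to be particular to the members. Members that lie in the same region are not independent points. The median of the neighbour values was -0.07, and 40 of the 48 members (83.3%) lay below their own neighbours, by a median of -0.28, as did 49.96% of all 12495 genes with enough neighbours. Segments were then chosen after the values were seen. On chromosome 5 beyond 100 Mb the 6 members Cdc7, Pole, Rfc5, Rfc2, Mcm7 and Rfc3 had a median of 0.34, and the 456 other genes tested there had 0.36. On chromosome 8 beyond 70 Mb the 5 members Mcm5, Orc6, Gins3, Gins2 and Cdt1 had a median of -0.77, and the 450 other genes had -0.44. Mcm7 and Rfc2 lay close to their neighbours (0.57 and 0.63), while Cdc7, with neighbours at 0.19, lay 0.68 above them. Pole2, Rrm2 and Mcm6 had neighbours at -0.57, -0.57 and -0.54 and lay 0.80, 0.98 and 0.39 below them. The 39 members outside chromosome 5 had a median of -0.38. What the regions share was not tested.

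**Figure D5:**
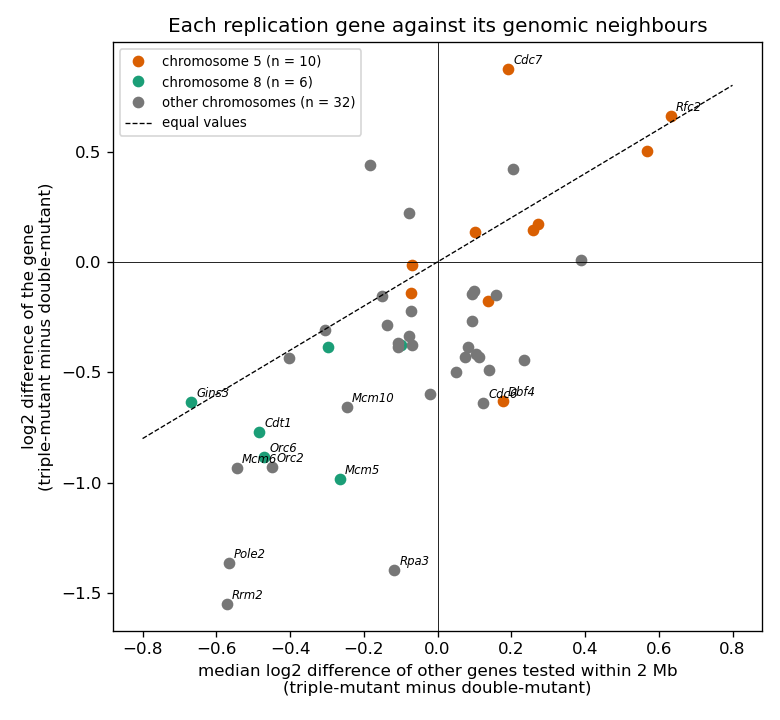
Log2 difference of each of 48 replication genes (vertical axis) against the median log2 difference of the other genes tested within 2 Mb (horizontal axis), both triple-mutant minus double-mutant. Points are coloured by chromosome, and the dashed line marks equal values. Of the 48 genes 40 lie below the line, and Cdc7 is the farthest above it.

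Genes of the same pathways beyond the 49 gave a similar picture. Of 36 other origin and fork genes, 16 were lower in both triple-mutant tumors (all genes 22.9%) and 3 higher (all genes 21.3%, namely Rnaseh2c, Pold4 and Pole4), and their median was -0.26, with none at an unadjusted p below 0.05. Among them Pclaf, which binds Pcna, read 32.9 and 29.5 against 62.5 and 43.0 FPKM (-0.72), and Donson, which helps to load the helicase, 10.3 and 6.79 against 14.0 and 14.7 (-0.71). Pold4, the small subunit of polymerase delta, was higher at 25.2 and 35.3 against 18.9 and 15.7 (0.76). Of 33 other nucleotide synthesis genes, 14 were lower and 1 higher without overlap, with a median of -0.33. Shmt1, which charges folate with one-carbon units (-0.81, unadjusted p = 0.0290), and Atic, which closes the purine ring (-0.80, unadjusted p = 0.0280), were lower, and the mitochondrial kinase Dguok was higher (1.11, unadjusted p = 0.0393). Impdh1, an enzyme of guanine nucleotide synthesis, read 33.6 and 32.4 FPKM in the triple-mutant tumors, 82.4 in 26048 and 1084 in 26050. Its difference of -3.14 ± 1.25 (adjusted p = 0.520) is, like that of Rpa3, carried mostly by 26050. Adss, of adenine nucleotide synthesis, had -0.83. E2F letters stood in 33.3% of the promoters of the former list and in 4.55% of those of the latter.

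The mitosis list, used as a second measure of proliferation, differed from the replication genes in which tumor was low. Of its 24 genes, 8 were lower in both triple-mutant tumors and 0 higher (all genes 22.9% and 21.3%), with a median of -0.26. Mki67, the common marker of proliferation, read 22.5 and 25.1 against 39.9 and 38.5 FPKM (-0.70 ± 0.26, unadjusted p = 0.0495, adjusted p = 0.508). By immunostaining for the Ki67 protein, the paper found similar proliferation of tumor cells in the genotypes. Protein in tissue sections and RNA of whole tumor are unlike measures. The paper also tested gene sets on the RNA of this series. It reported the sets of E2F targets, G2M checkpoint and mitotic spindle as higher in the double-mutant tumors. That test used the same series, so it is not a measure independent of the values here. Cenpf gave -0.70, and Cdk1 1.08 through a value of 216 FPKM in 26044. The mean log2(FPKM + 1) of the list was 4.63 in 26043, 5.02 in 26044, 4.85 in 26048 and 5.31 in 26050. Tumor 26050 was again the highest, for 15 of the 24 genes (62.5%), but 26044 lay above 26048. Replication minus mitosis was -0.05 in 26043, -0.60 in 26044, -0.24 in 26048 and -0.26 in 26050, so that 26044 had the least replication transcript for its mitotic transcript, and the difference between the genotypes on this measure was -0.08.

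Markers of other cell types also varied among the tumors, and none passed an adjusted p of 0.05 in the limma fit. At an unadjusted p below 0.05 it held 4 of 6 immune and 4 of 7 fibroblast markers lower and 0 higher. Of 8 epithelial markers it held 0 lower and 2 higher (all genes 3.91% lower and 5.91% higher). The median log2 difference was -0.89 for the immune and -1.94 for the fibroblast markers, against -0.37 for the 49 genes. Of 6 immune markers tested, 5 were lower in both triple-mutant tumors and 0 higher (all genes 22.9% and 21.3%), and the FPKM of these 6 summed to 151 in 26043 and 152 in 26044, against 471 in 26048 and 317 in 26050. The T cell marker Cd3e was below 0.5 FPKM in all 4 tumors. Of 7 fibroblast markers tested 4 were lower and 1, Pdgfra, was higher (2.90 and 19.1 against 1.63 and 1.44 FPKM), and the 8 listed summed to 206 and 123 against 901 and 433. The 8 epithelial markers summed to 4151 in 26043, 599 in 26044, 2458 in 26048 and 1935 in 26050, and Epcam read 347, 25.7, 516 and 390. The epithelial list was split, with 3 markers lower and 3 higher in both triple-mutant tumors (all genes 22.9% and 21.3%). Tumor 26044, lowest for 28 of the 49 genes, thus also had the lowest epithelial sum. It was the lowest for 5 of the 8 markers, while 26048 was the lowest for 2 and 26050 for 1. The endothelial markers of 26044 (6 genes, sum 103) were above the 30.2 to 54.4 of the others, although all 5 endothelial markers tested overlapped between the genotypes. Adipocyte markers summed to 801 in 26048 and at most 7.87 elsewhere, and skeletal muscle markers to 34.6 in 26050 and at most 2.95 elsewhere. The part of these cell types in the differences of the replication genes was not tested.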

How the data were processed

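The authors purified polyA RNA, made dUTP (stranded) libraries, aligned reads with TopHat2 2.0.10 and Bowtie 0.12.9 to mm10, and deposited the FPKM of each gene from Cufflinks 2.1.1 with its interval and status. The authors' own test (DESeq2 1.6.2 on HTSeq counts) was not used here, because counts were not among the values analysed. Tables were joined by gene and position. Starts were shifted by 1 to count from 1. Genes were kept at 1 FPKM or more in 2 or more tumors, and limma 3.58.1 (R 4.3.3) was run on log2(FPKM + 1) (eBayes with trend, Benjamini-Hochberg, threshold 0.05), triple-mutant minus double-mutant. The labels number 2 tumors per genotype without naming the animals, so p-values measure only the spread between these tumors. Tested on simulated data (12752 genes, 200 changed), the fit recovered 16.4% of changes of 1 log2 unit and 98.5% of changes of 2. The simulation gave every gene the same spread, the median of the real spreads. Real genes differ in spread, so these shares do not say how often such changes would be found here. In the real data, differences ran from -8.70 to 7.20 and 0 genes were called. Alternatives were a pseudocount of 0.1, no filter, 5 FPKM, TPM, quantile and median-of-ratios scaling, no trend, the interval midpoint, status OK and each tumor left out. Subtracting neighbours was added after seeing the data. The 49 genes and all lists were chosen with earlier results of these data known. Full values are given for genes with unadjusted p below 0.05, the 3 largest differences in groups of at least 6 genes, and all genes of smaller groups. Of the 49 genes 15 share exons with a gene on the opposite strand (such as Mcm7, Orc2 and Rfc2), and whether FPKM were estimated by strand is not given in the sources used here. Pcna and Tyms have named pseudogenes that could take reads. Depth is unknown, because whole reads could not be recovered from the FPKM.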

Additional observations from a re-analysis of the deposited data

How the results depend on the processing

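None of the 49 genes passed an adjusted p of 0.05 under any alternative run. The median difference of the 49 genes was below 0 in each, from -0.41 (TPM) to -0.28 (neighbours subtracted, or interval midpoint), and from -0.56 to -0.15 when each tumor was left out. Over all genes the count of calls was 0, but 5 in limma without the trend and 1 with the interval midpoint. When each tumor was left out, 25 to 38 of the 49 genes were lower without overlap (38 without 26048, all genes 31.9% to 45.1%), 4 to 9 were higher without overlap (9 without 26044 or without 26050, 5 without 26043, all genes 30.8% to 40.2%), and 0 to 5 had an unadjusted p below 0.05 (0 without 26044 or without 26050, 5 without 26043, all genes 3.99% to 17.4%). These fits assume that a lone tumor varies like the other pair. The cause was not tested, beyond the looser condition that 3 tumors set for not overlapping. Of 25 genes with full values, 19 kept their direction in every alternative. Rfc1 turned to 0.030 with the interval midpoint and Tyms to 0.012 with median-of-ratios scaling. Leaving out each tumor gave ranges across 0 for Rpa2 (-0.40 to 0.10), Rpa3 (-3.15 to 0.36), Fen1 (-0.63 to 0.34), Tyms (-0.45 to 0.42) and Tk1 (-1.12 to 0.44). No paired analysis was possible because the labels do not say which tumors share a litter and the genotypes share no tumor numbers. Depth is unknown, so what it limits could not be set.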

Other observations

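The regulators that stand between G1 and S phase were listed apart from the replication genes, and they had no common direction. Of 23 such genes, 9 were lower in both triple-mutant tumors and 4 higher (all genes 22.9% and 21.3%), their median log2 difference was -0.25, and none passed an adjusted p of 0.05 in the limma fit. Cdkn1b, which encodes the cyclin-dependent kinase inhibitor p27, read 39.1 and 38.5 FPKM in the triple-mutant tumors 26043 and 26044 against 11.1 and 18.9 in the double-mutant tumors 26048 and 26050 (1.36 ± 0.35 SE, unadjusted p = 0.0145, adjusted p = 0.438). Cdkn2a, the locus of the inhibitor p16 and of Arf, read 291 and 153 against 101 and 75.2 (1.26 ± 0.42, unadjusted p = 0.0330, adjusted p = 0.485). At an unadjusted p below 0.05 the list held 3 lower and 2 higher genes (all genes 3.91% and 5.91%). The lower ones were the repressor E2f6 (8.62 and 6.86 against 16.7 and 18.6 FPKM, -1.10), Rb1, the retinoblastoma gene (4.81 and 2.76 against 8.05 and 8.67, -1.0), and Lin9, a subunit of the DREAM and MuvB complexes (5.43 and 5.18 against 10.3 and 14.6, -1.07). Ccne1, which encodes the S-phase cyclin E1, read 16.3 and 17.9 against 20.6 and 69.8 FPKM (-1.11 ± 0.63, adjusted p = 0.601), so its difference, like that of several replication genes, was set mostly by 26050. E2f1 itself overlapped between the genotypes, with 17.2 and 23.4 against 17.8 and 17.6 FPKM.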
